A study of Mus musculus with 6 samples.

Results

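The RGS proteins (regulators of G-protein signalling) were described here by 10 genes, Rgs2, Rgs3, Rgs4, Rgs5, Rgs10, Rgs12, Rgs14, Rgs16, Rgs17 and Rgs19, in mouse embryonic fibroblasts (MEFs) with and without the mitochondrial protease YME1L. Each of the 10 symbols named a single locus of the 51499 in the count table, none of them merged with a neighbouring gene, and 6 of the 10 were among the 13867 loci with enough counts for testing. The genes were chosen with the difference between the genotypes known, in particular the rise of Rgs17 from near 0, so their values between genotypes are a description and carry no test.

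Poly(A)-selected RNA was sequenced from 3 cultures of WT MEFs and 3 cultures of Yme1l-/- MEFs to ask how the loss of YME1L alters gene expression. All cells came from Yme1l loxP/loxP animals and were immortalized with the SV40 large T antigen. According to the study's methods, clones were picked after Cre transduction and sorted by genotype, so the WT cells still carry both loxP alleles and the Yme1l-/- cells were genotyped as deleted. How many clones gave the 3 cultures of a genotype is not given in the sources used here, nor is the meaning of the 2 in the name WT2 that the WT cultures carry in the count table, so genotype and clone cannot be told apart, and the spread between cultures may be technical.

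RGS proteins switch off signals from G protein-coupled receptors. An activated receptor loads the G-alpha subunit with GTP, and the RGS domain speeds the hydrolysis of that GTP, after which G-alpha rejoins G-beta-gamma and the signal ends. The R4 subfamily (Rgs2, Rgs3, Rgs4, Rgs5 and Rgs16 here) holds mostly small proteins with little beyond the RGS domain. The R12 subfamily (Rgs10, Rgs12 and Rgs14) includes large scaffolds, and the RZ subfamily (Rgs17 and Rgs19) acts on Gi-type subunits including G-alpha-z. Fibroblasts signal through receptors for lysophosphatidic acid, thrombin, bradykinin and endothelin, which couple to the Gi, Gq and G12/13 classes.

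Rgs16 was nearly silent in Yme1l-/- cells and Rgs17 was nearly silent in WT cells. The upstream sequences of these genes are shown because the results below turn on them, and so that their sequence context can be compared. They were taken from RefSeq (build GRCm38.p6, the build of the count table's coordinates) and run 5′ to 3′ on the gene's strand up to the base before the annotated start. The Rgs16 stretch is chr1:153740103-153740348 on the plus strand and the Rgs17 stretch is chr10:5922401-5922650 on the minus strand. Neither overlaps an annotated exon. Capitals mark matches to the motifs named in the next paragraph.
Rgs16: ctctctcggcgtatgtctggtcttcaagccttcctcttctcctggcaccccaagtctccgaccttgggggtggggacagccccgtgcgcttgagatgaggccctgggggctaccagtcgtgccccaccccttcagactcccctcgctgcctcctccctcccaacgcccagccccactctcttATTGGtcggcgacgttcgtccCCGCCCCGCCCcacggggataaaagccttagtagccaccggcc
Rgs17: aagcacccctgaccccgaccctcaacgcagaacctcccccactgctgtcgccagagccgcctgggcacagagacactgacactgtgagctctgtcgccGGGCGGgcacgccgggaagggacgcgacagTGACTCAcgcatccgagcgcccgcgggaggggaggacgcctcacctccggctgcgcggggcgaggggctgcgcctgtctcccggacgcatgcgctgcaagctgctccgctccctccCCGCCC

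A set of 7 short motifs was searched on both strands, counting overlapping matches separately. The Rgs16 stretch held 1 CCAAT box (CCAAT) and 2 overlapping GC boxes (GGGCGG). The Rgs17 stretch held 2 GC boxes and 1 AP-1 site (TGANTCA, where N is any base). None of the other motifs was found in either stretch, namely the TATA box (TATAAA), the cAMP response element (TGACGTCA), the C/EBP-ATF response element (TGATGNAA) and the core of the interferon-stimulated response element (GAAANNGAA). Of 32851 promoter windows in the RefSeq table, cut to the 250 bases before the start, 32.7% held a GC box, 33.8% a CCAAT box and 6.75% an AP-1 site. The TATA box was in 12.4%, the cAMP response element in 1.55%, the C/EBP-ATF response element in 3.45% and the interferon-stimulated core in 7.13%. The ratio of observed to expected CpG dinucleotides over the 250 bases before the RefSeq start, which for Rgs16 run 4 bases past the stretch shown, was 0.659 for Rgs16 and 0.835 for Rgs17, against a median of 0.373 over all windows. Windows were present for 9 of the 10 genes, with several starts for Rgs3, Rgs12 and Rgs19. The ratio was lowest, at 0.226, for Rgs5 among the genes with 1 start. A motif match describes the letters and is not a binding site.

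The check of the targeted gene came first. Yme1l1 (mm10, chr2:23156369-23199260) stood at 191, 192 and 183 CPM (counts per 1e+06 fragments of the scaled library) in WT cultures and at 37.9, 38.9 and 40.6 CPM in cultures labelled Yme1l-/-, a log2 fold change of -2.27 ± 0.05 (SE). The Yme1l-/- libraries thus still held 1327, 1963 and 2067 fragments of the locus, and since counts cover the whole locus, they do not show whether these include the deleted part. The libraries held between 33180867 and 49351107 counted fragments. Of the 13867 loci tested, 67.7% were called as different between the genotypes (edgeR, quasi-likelihood, adjusted p below 0.05), 33.6% higher and 34.1% lower in Yme1l-/- cells, and 71.9% had libraries that did not overlap between the genotypes. Against this background, 5 of the 6 RGS genes tested were called, 4 higher and 1 lower, and 5 of the 6 did not overlap; since the genes were selected on this contrast, nothing is read from these counts. In bulk RNA, fewer cells that express a gene cannot be told apart from less RNA per cell.

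**Figure D1:**
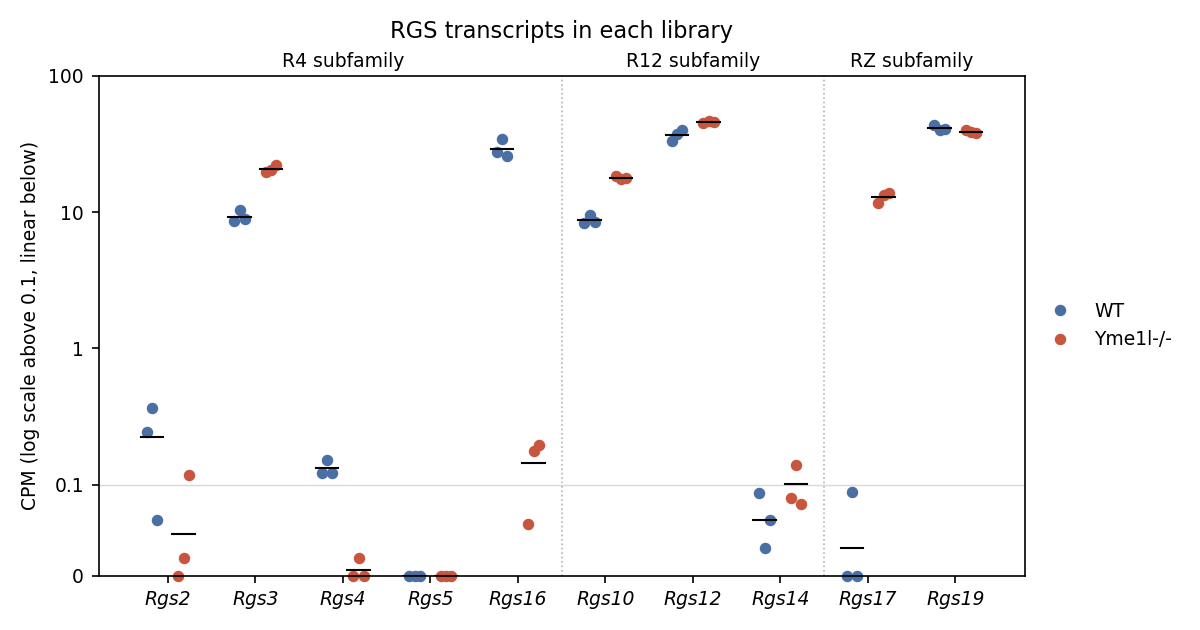
CPM of each RGS gene (vertical axis, logarithmic above 0.1 and linear below) in the 3 WT and 3 Yme1l-/- libraries (points), ordered by subfamily, with bars at the group means. Rgs16 stood at 25.8 to 34.3 CPM in WT and at 0.0572 to 0.196 CPM in Yme1l-/- libraries, and Rgs17 shows the opposite order.

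Rgs16, an R4 protein that acts on Gi- and Gq-class subunits and is known as an inducible gene, was almost lost from Yme1l-/- libraries. It lies at chr1:153740349-153749324 on the plus strand. Its fragment counts were 917, 1124 and 841 in WT libraries and 2, 9 and 10 in Yme1l-/- libraries. Every WT library was far above every Yme1l-/- library. The level went from 29.3 ± 4.5 to 0.144 ± 0.0757 CPM (SD, n = 3), a fitted log2 fold change of -7.55 ± 0.21 (SE), or 187-fold lower. The ratio of the summed counts, WT over Yme1l-/-, was 190 with an exact 95% interval of 124 to 307 that covers counting error only. Within the Yme1l-/- group the first library had fewer counts than the other two, at a level near the 3-count floor of 0.0857 CPM.

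Rgs17, the RZ protein that quenches G-alpha-z and other Gi-type subunits and is best known from the brain, showed the reverse. It lies at chr10:5825663-5922400 on the minus strand. Its counts were 0, 3 and 0 in WT libraries and 411, 672 and 707 in Yme1l-/- libraries. The 3 WT fragments came from a single library, and all Yme1l-/- libraries were above it. The level was 11.7, 13.3 and 13.9 CPM in the Yme1l-/- libraries, with a mean of 13 ± 1.11 CPM (SD, n = 3). The ratio of summed counts, Yme1l-/- over WT, was 431, with an exact 95% interval of 147 to 2090 for counting error. Without WT replicate 2 no WT fragment was left, and the level was then at least 141-fold higher in Yme1l-/- cells, set against 3 counts per library. The fitted fold change of such a gene depends on the fitting method and is not given as a value.

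Rgs3, an R4 protein with long and short forms, was higher in Yme1l-/- cells. It lies at chr4:62559847-62704001 on the plus strand. It stood at 8.55, 10.3 and 8.94 CPM in WT and at 19.8, 20.4 and 22.2 CPM in Yme1l-/- libraries. The ranges were well apart, and the log2 fold change was 1.17 ± 0.09 (SE), or 2.25-fold.

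The other R4 genes were at or near 0. Rgs2, which acts with preference on Gq-class subunits, had 8, 12 and 2 counts in WT and 0, 1 and 6 in Yme1l-/- libraries. These ranges overlapped, and the ratio of summed counts, WT over Yme1l-/-, was 4.35 (exact 95% interval 1.8 to 12.1). Rgs4 had 4, 5 and 4 counts in WT and 0, 1 and 0 in Yme1l-/- libraries, which did not overlap, with a ratio of 18 (2.7 to 765). Rgs5, known as a marker of pericytes, had 0 counts in all 6 libraries, which allows a level of up to 0.0589 to 0.0919 CPM depending on the library. Rgs2, Rgs4 and Rgs5 were too low for testing, and with Rgs16 they make up the 4 RGS genes of the list on chromosome 1.

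Of the R12 genes, Rgs10 and Rgs12 were both higher in Yme1l-/- cells. Rgs10, a small protein that consists mainly of the RGS domain and is known from microglia, lies at chr7:128373621-128418758 on the minus strand. It stood at 8.37, 9.5 and 8.42 CPM in WT and at 18.5, 17.5 and 17.7 CPM in Yme1l-/- libraries. The libraries of each genotype were close together, and the log2 fold change was 1.03 ± 0.08 (SE), or 2.04-fold. Rgs12, a scaffold with a PDZ domain, Ras-binding domains and a GoLoco motif, lies at chr5:34949445-35039644 on the plus strand. It stood at 33.4, 37.2 and 40.2 CPM in WT and at 45.3, 46.5 and 45.7 CPM in Yme1l-/- libraries. The ranges did not overlap, though the WT libraries were more spread than the Yme1l-/- libraries, and the log2 fold change was 0.31 ± 0.06 (SE), or 1.24-fold. Rgs14, the other scaffold with Ras-binding domains and a GoLoco motif, had 3, 1 and 2 counts in WT and 3, 7 and 4 in Yme1l-/- libraries. Its ranges met, and the ratio of Yme1l-/- over WT was 1.69 (exact 95% interval 0.608 to 5.35, counting error only).

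Rgs19, the second RZ gene, first described as a partner of Gi-type subunits, was the RGS gene tested that was not called. It lies at chr2:181688419-181693977 on the minus strand. It stood at 43.5, 39.7 and 40.6 CPM in WT and at 40.1, 38.4 and 37.8 CPM in Yme1l-/- libraries. The libraries of the genotypes overlapped, and the log2 fold change was -0.09 ± 0.05 (SE). The subfamily thus held a gene that was near 0 in WT and a gene at a similar level in both genotypes.

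Levels of different genes were compared per kilobase of exon. In WT cells the order was Rgs19 (18.5 CPM per kb), Rgs16 (12.5), Rgs10 (5.12), Rgs12 (4.35) and Rgs3 (0.857), and none of these overlapped its neighbour in the order over the 3 libraries. Below them, Rgs2 overlapped Rgs4, and Rgs14 overlapped Rgs17. In Yme1l-/- cells the order was Rgs19 (17.4 CPM per kb), Rgs10 (10.5), Rgs12 (5.4), Rgs3 (1.92) and Rgs17 (1.56), again without overlap between neighbours. Rgs16 had dropped to sixth place and overlapped Rgs14 there. The authors' combined FPKM, which weighs transcript forms differently, gave 15.8 for Rgs3 and 10.1 for Rgs12 in Yme1l-/- cells, so the order of Rgs3 and Rgs12 depends on how length is counted.

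Of the summed RGS level per kb, Rgs16 supplied 28.8%, 33.7% and 27.7% in WT cultures, against 0.0652%, 0.209% and 0.229% in Yme1l-/- cultures. Rgs10 supplied 12.4 ± 0.425% in WT and 28.4 ± 0.483% in Yme1l-/- cells, and Rgs17 supplied 0.00845 ± 0.0146% and 4.25 ± 0.416% (SD, n = 3). The share of Rgs19 was 44.7 ± 3.41% and 47.2 ± 0.85%. By subfamily, the R4 sum was 12.7, 15.8 and 11.9 CPM per kb in WT and 1.86, 1.98 and 2.17 in Yme1l-/- libraries. The R12 sum was 9.49 ± 0.57 and 15.9 ± 0.246 CPM per kb, and the RZ sum was 18.5 ± 0.886 and 18.9 ± 0.398. The summed level of all 10 genes was 39.8 to 43.5 CPM per kb in WT and 36.5 to 37.4 in Yme1l-/- libraries.

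These sums and shares depend on how length is counted. Summed in the authors' combined FPKM, the 10 genes stood at 77.9 in WT and 87.8 in Yme1l-/- cells, and summed in CPM without regard to length at 122 to 132 and 136 to 138, so the direction of the sum was the opposite of that per kb of exon. The R4 sum was 21.3 and 15.9 in FPKM, and 34.9 to 45.1 and 19.9 to 22.5 in CPM, lower in Yme1l-/- cells on each scale but by less than per kb of exon. The RZ sum was 35.5 and 36.3 in FPKM, and 39.8 to 43.5 and 51.7 to 51.8 in CPM. By FPKM, Rgs16 made up 16.8% of the sum in WT and 0.0737% in Yme1l-/- cells, Rgs10 15.9% and 28.9%, Rgs3 10.2% and 18% and Rgs19 45.6% and 37.1%.

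**Figure D2:**
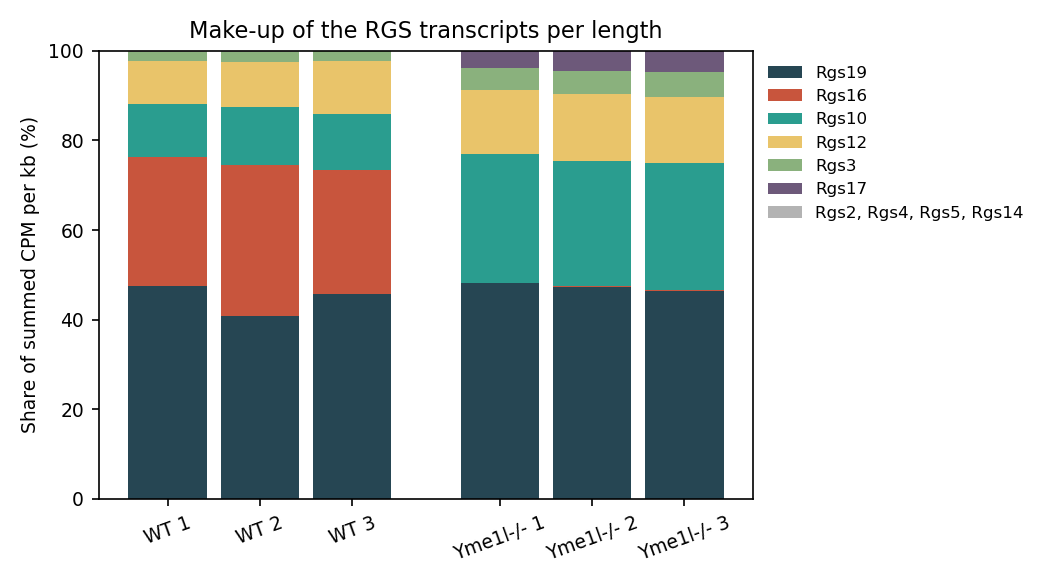
Share of each RGS gene (percent of the summed CPM per kb of exon, vertical axis) in each of the 6 libraries, with Rgs2, Rgs4, Rgs5 and Rgs14 drawn together. Rgs16 fills 27.7 to 33.7% of the WT bars and is at most 0.229% of the Yme1l-/- bars, and Rgs10 widens from 12.4% to 28.4% on average; by the authors' FPKM the WT share of Rgs16 is 16.8%.

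The surroundings of the RGS genes gave a measure that the choice of genes did not use. The median log2 fold change was -0.004 over all loci, -0.15 over chromosome 1 and 0.3 over chromosome 10. For the other genes the median of the chromosome was -0.1 (Rgs3), -0.01 (Rgs10), 0.01 (Rgs12) and -0.02 (Rgs19). Within 2 Mb of the start of Rgs16, 21 other loci were analysed. Of these, 3 were higher and 11 lower, beside 33.6% and 34.1% of all loci. Their median was -0.21 and their range -1.81 to 0.67. Glul, the glutamine synthetase gene, 100 kb to the right of Rgs16, was at -0.04 ± 0.1 (adjusted p = 0.734 by edgeR), and the predicted gene Gm6652, 120 kb to the left, at 0.67 ± 0.33 (adjusted p = 0.0924 by edgeR). Neither was called. Dhx9, a helicase gene 253 kb to the left, differed by -0.19 ± 0.05 (adjusted p = 0.00958 by edgeR).

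Within 2 Mb of Rgs17, 21 other loci were tested, 12 higher and 2 lower, beside 33.6% and 34.1% of all loci. Their median was 0.41 and their range -0.43 to 2.92. The closest, Mtrf1l, a gene for a mitochondrial release factor 1.75 kb away, was higher by 0.44 ± 0.07 (adjusted p = 0.000196 by edgeR). Fbxo5, which encodes an inhibitor of the anaphase-promoting complex and lies 20.1 kb away, was higher by 0.27 ± 0.05 (adjusted p = 0.000701 by edgeR). Syne1, which encodes a nuclear envelope protein, lies 274 kb away and was at -0.40 ± 0.18, not called (adjusted p = 0.0932 by edgeR). Around the other genes examined in this way, the median was 0.14 for Rgs3 (19 loci, 8 higher and 4 lower), 0.07 for Rgs10 (79 loci, 28 higher and 16 lower) and -0.14 for Rgs20, an RZ gene on chromosome 1 outside the list (12 loci, 0 higher and 5 lower). Rgs20 itself was higher in Yme1l-/- cells. Whether the shift of the chromosome or of the region takes part in the difference of these genes was not tested.

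**Figure D3:**
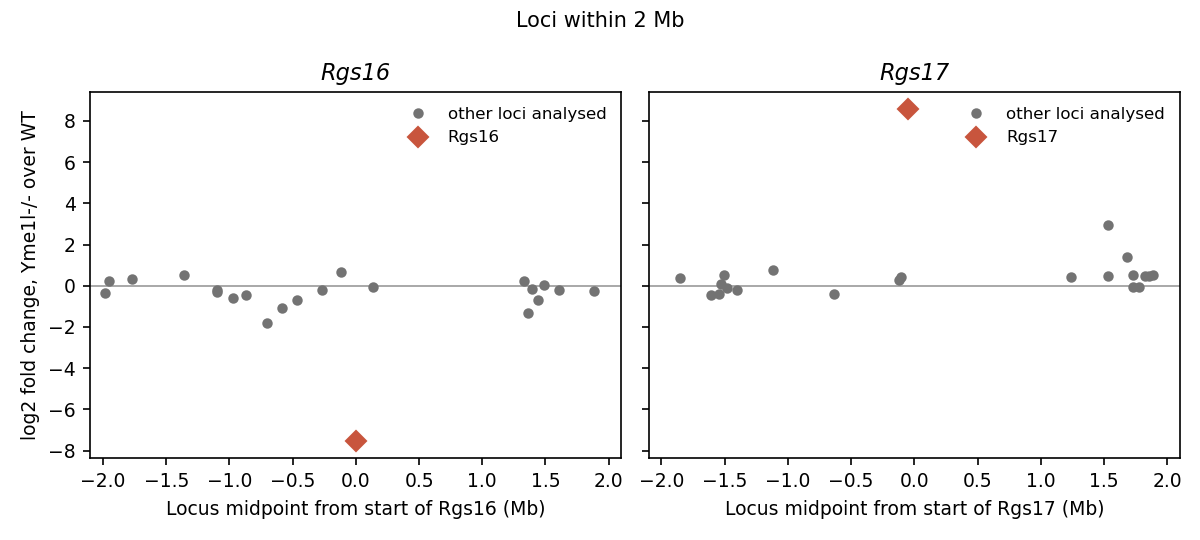
Log2 fold change (Yme1l-/- over WT, vertical axis) of loci analysed within 2 Mb of Rgs16 (left) and Rgs17 (right) against the distance of the locus midpoint from the start of that gene (Mb, rising with the chromosome coordinate), with the RGS gene as a diamond. The other loci lie between -1.81 and 0.67 around Rgs16 and between -0.43 and 2.92 around Rgs17; the height of the Rgs17 diamond depends on the fitting method.

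The loci most like Rgs17 over the 6 libraries were found by their distance in log2 CPM. They were Limch1 (distance 1.96), which encodes an actomyosin regulator, on chromosome 5, Sp100 (2.15), which encodes a nuclear body protein, on chromosome 1, and Serpina3g (2.23), a serine protease inhibitor gene, on chromosome 12. Limch1 had 2, 5 and 3 counts in WT and 442, 741 and 588 in Yme1l-/- libraries. Sp100 had 0, 5 and 5 against 287, 558 and 631, and Serpina3g had 2, 5 and 1 against 226, 332 and 327. All 3 had 5 or fewer fragments in every WT library and at least 226 in every Yme1l-/- library. This follows from their choice by nearness to Rgs17 in the same libraries.

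Of 17 other genes with an RGS domain, 9 were tested, of which 3 were higher and 5 lower in Yme1l-/- cells, beside 33.6% and 34.1% of all loci, with a median log2 fold change of -0.56 beside -0.004 for all loci. Rgs20, the RZ gene closest in kind to Rgs17 and Rgs19, had 1, 1 and 3 counts in WT and 61, 102 and 124 in Yme1l-/- libraries. The count ratio was 41.5 (exact 95% interval 17.6 to 129, counting error only). It passed the count filter only through the Yme1l-/- libraries, so its fitted log2 fold change of 5.27 ± 0.37, which was 5.957 without WT replicate 3, is given without a test. Among the R7 genes, whose proteins pair with the G-beta-5 subunit, Rgs9 rose by 1.67 ± 0.25 (adjusted p = 0.000106) and Rgs11 was lower, at -1.07 ± 0.25 (adjusted p = 0.00258). Rgs6 was at 0 in all libraries, as were Rgs1, Rgs13, Rgs18 and Rgs21. Axin2, a target and brake of Wnt signalling, was lower at -1.83 ± 0.5 (adjusted p = 0.0124), with 154 counts in WT replicate 2 against 47 and 54 in the other WT libraries. Without WT replicate 2 its log2 fold change was -1.082 (adjusted p = 0.00451). With no filter beyond a total of 1 count its adjusted p was 0.0729, without Yme1l-/- replicate 1 it was 0.0803, and without Yme1l-/- replicate 3 it was 0.0543. Snx14 was counted in a locus merged with Gm20537 and Syncrip, so its value of -0.75 ± 0.04 (adjusted p = 6.3e-08) belongs to the merged locus.

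**Figure D4:**
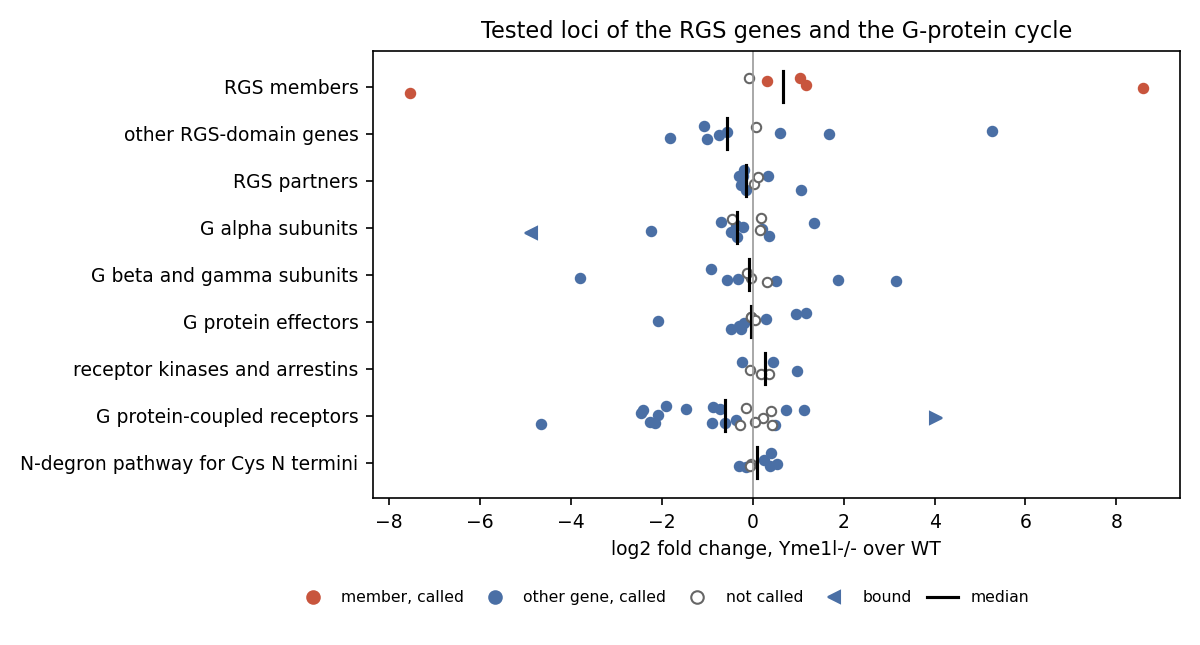
Log2 fold change (Yme1l-/- over WT, horizontal axis) of each tested locus of the RGS genes and of the lists of the G-protein cycle, filled where called at an adjusted p under 0.05, with bars at the medians and triangles at the bounds of Gna14 and Bdkrb1. The RGS genes reach from Rgs16 at -7.55 to Rgs17, whose position depends on the fitting method, and the receptors have the lowest median, at -0.62.

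The genes for the partners and targets of RGS proteins were read against the same background, 33.6% of all loci higher and 34.1% lower. These shares stand beside the counts of every list below, cell type markers included. Of 13 G-alpha genes tested, 3 were higher and 7 lower, with a median of -0.35. Gnaz, the subunit on which the RZ proteins act, rose by 1.35 ± 0.21 (adjusted p = 0.000165), from 1.17 ± 0.289 to 2.95 ± 0.512 CPM. Gna11 of the Gq class was higher by 0.36 ± 0.05 (adjusted p = 4.51e-05, and 0.263 with chromosome medians removed). Gna14, another Gq-class gene, had 2.53 ± 0.315 CPM in WT and no fragment in Yme1l-/- libraries, which is at least 29.5-fold lower against 3 counts per library. Gnao1, a Gi-class subunit abundant in neurons, was lower at -2.24 ± 0.07 (adjusted p = 4.57e-10). Gnas, the most abundant, whose product stimulates adenylyl cyclase, was lower at -0.70 ± 0.05 (adjusted p = 4.7e-07).

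Of 10 G-beta and G-gamma genes tested, 3 were higher and 4 lower, with a median of -0.08. Of these, Gng10 (0.52, called higher) and Gnb2 (-0.33, called lower) were counted in loci merged with other genes. Gng2 rose by 3.15 ± 0.13 (adjusted p = 3.58e-09) and Gng7 by 1.88 ± 0.09 (adjusted p = 1.6e-08). Gnb4 was lower at -0.91 ± 0.06 (adjusted p = 7.97e-08), as was Gnb1, the most abundant, at -0.56 ± 0.05 (adjusted p = 9.63e-07). Gng11 was at -3.81 ± 0.33. It passed the count filter only through the WT libraries, so this value is given without a test. The gamma genes thus moved in both directions.

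Of 9 genes for partners of RGS proteins, 2 were higher and 5 lower, with a median of -0.14. Gnb5, the obligate partner of R7 proteins, was lower at -0.31 ± 0.08 (adjusted p = 0.00586), and with the median of each chromosome removed it was at 0.055. Gpsm2, a GoLoco protein of spindle orientation, was at -0.27 ± 0.04 (adjusted p = 0.000228), and Ppp1r9b (spinophilin), the most abundant of the list, at -0.20 ± 0.05 (adjusted p = 0.00377). Gpsm3 was counted in a merged locus, at 0.34 ± 0.05 (adjusted p = 4.61e-05).

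Of 11 effector genes, 3 were higher and 5 lower, with a median of -0.05. The adenylyl cyclase genes split. Adcy1 rose by 1.18 ± 0.16 (adjusted p = 6.57e-05) and Adcy9 by 0.96 ± 0.13 (adjusted p = 5.61e-05), and Adcy7 was lower at -2.09 ± 0.08 (adjusted p = 1.25e-09). Arhgef12, an RGS-homology guanine nucleotide exchange factor for RhoA and the most abundant of the list, was at -0.49 ± 0.07 (adjusted p = 0.000182), and at -0.127 with chromosome medians removed (adjusted p = 0.161).

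Upstream of the G proteins, 23 receptor genes were tested, with 4 higher and 13 lower, beside 33.6% and 34.1% of all loci. Their median was -0.62. Lpar1, the main lysophosphatidic acid receptor of fibroblasts, was lower at -2.47 ± 0.06 (adjusted p = 1.06e-10). Ackr3, a chemokine scavenger, was at -4.67 ± 0.29, which is also given without a test because only the WT libraries carried it past the count filter. Lpar4 rose by 1.13 ± 0.18 (adjusted p = 0.00021). Bdkrb1, the inducible bradykinin receptor, had no fragment in WT and 1.5 ± 0.0588 CPM in Yme1l-/- libraries, at least 16.3-fold higher. F2r, the thrombin receptor and the most abundant of the list, was at 0.04 ± 0.04 and was not called (adjusted p = 0.405). With upper-quartile scaling it was called, at 0.098 (adjusted p = 0.0435). With chromosome medians removed its value was -0.042, and 7 receptor genes were then called higher.

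Receptor kinases and arrestins end signals at the receptor itself, a step upstream of the RGS proteins. Of 6 tested, 2 were higher and 1 lower, with a median of 0.26. Arrb1 rose by 0.97 ± 0.09 (adjusted p = 2.6e-06), and Arrb2 by 0.45 ± 0.06 (adjusted p = 3.42e-05, and 0.198 with chromosome medians removed). Grk2 was at -0.23 ± 0.06 (adjusted p = 0.00364), and Grk6, the most abundant, at -0.07 ± 0.04 (adjusted p = 0.19, and 0.0127 with chromosome medians removed, where it was lower at -0.15).

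Rgs4, Rgs5 and Rgs16 proteins are known substrates of the N-degron pathway, which removes proteins that begin with cysteine. Of its 8 genes, 4 were higher and 2 lower, with a median of 0.10. Ubr4, which was not called, was counted in a merged locus. Ubr1, a ligase, rose by 0.53 ± 0.07 (adjusted p = 4.73e-05), and Kcmf1 by 0.39 ± 0.05 (adjusted p = 2.02e-05, and 0.377 with chromosome medians removed). Metap1 was at -0.31 ± 0.05 (adjusted p = 0.000106), and the arginyl transferase gene Ate1 at -0.16 ± 0.06 (adjusted p = 0.0217). Without Yme1l-/- replicate 3 the adjusted p of Ate1 was 0.0716, without WT replicate 2 it was 0.0847, without WT replicate 3 it was 0.0747, and with upper-quartile scaling it was 0.124. Metap2, which removes the first methionine and was the most abundant, was at 0.25 ± 0.04 (adjusted p = 0.000368), and at -0.052 with chromosome medians removed.

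Markers of cell types moved with the genotype too. Summed over 9 fibroblast genes the level was 10900 to 11400 CPM in WT and 6660 to 7150 CPM in Yme1l-/- libraries, with Thy1 near 0 in both. Of 8 tested, 1 was higher and 6 lower, beside 33.6% and 34.1% of all loci. S100a4, called lower, was counted in a merged locus. Summed over 10 pericyte and smooth muscle genes it was 706 to 758 CPM in WT and 1050 to 1290 CPM in Yme1l-/- libraries, with 4 of 8 tested higher and 3 lower. Most of that difference was Acta2, at 228 CPM in WT and 699 CPM in Yme1l-/- cells. Des (0.436 and 2.65 CPM), Notch3 (12.6 and 20.3 CPM) and Tagln (288 and 355 CPM) were also higher. Mcam (108 and 14.5 CPM), Cspg4 (17.9 and 1.89 CPM) and Pdgfrb (73 and 57.8 CPM) were lower. The defining pericyte genes Abcc9 and Kcnj8 had 0 and at most 2 counts in any library, and Rgs5 had none. Of the 5 epithelial genes, Krt18 fell from 31.9 to 0.0262 CPM, and the sum from 32.9 to 34.9 CPM in WT to 0.334 to 0.686 CPM in Yme1l-/- libraries. The 5 neuronal genes found summed to 22.7 to 27.5 CPM in WT and 6.2 to 8.4 CPM in Yme1l-/- libraries, nearly all of it Map2, and Snap25 was at 0 throughout. Leukocyte genes summed to 1.8 to 1.99 CPM in WT and 3.74 to 4.49 CPM in Yme1l-/- libraries, with Adgre1 and Cd3e at 0. Most of that sum was Cd68, at 1.77 CPM in WT and 3.62 CPM in Yme1l-/- cells. Endothelial genes summed to 0.888 to 1.44 CPM in WT and 1.67 to 2 CPM in Yme1l-/- libraries, with Emcn at 0. Most of it was Kdr, at 0.995 and 1.64 CPM. The part of cell state in the differences of the RGS genes was not tested.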

How the data were processed

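The authors sequenced stranded poly(A)-selected libraries, mapped read pairs to GRCm38 (mm10), assembled transcripts with StringTie 1.3.3 after HISAT2 2.0.4 (per the submitters' processing notes), and deposited whole-number counts per assembled locus. The authors also deposited a Cuffdiff 2.2.1 table with 1 combined FPKM per genotype. Its fold, p-value and q-value columns were not used.

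The 10 RGS genes and all lists were chosen with earlier results of these data known. The count table was fitted with edgeR 4.0.16 (R 4.3.3; TMM scaling, filterByExpr with minimum count 10, robust quasi-likelihood test, two-sided, no covariates, Benjamini-Hochberg over 13867 loci, adjusted p under 0.05), which was tested on simulated data. CPM refers to the TMM-scaled library. Count ratios have exact conditional 95% intervals on counts summed per genotype, and floors are 3 counts. Both cover counting error only and leave out the spread between cultures. PCR copies were not identified. Length is the union of GENCODE exons. Single positions were lacking for 45 tested loci.

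Alternatives were RLE and upper-quartile scaling, DESeq2 1.42.0, other filters, the replicate block, removal of chromosome medians and leaving out each library. Named besides the RGS genes and Yme1l1 were the 2 highest and 2 lowest called loci (at least 1 CPM) and the most abundant locus of each list, and the 3 loci nearest to Rgs17. Neighbouring loci were named by position, cell type markers after their values were seen. Protein features were not analysed here. Of the loci near the RGS genes, 1 is not reported here.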

Additional observations from a re-analysis of the deposited data

How the results depend on the processing

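Across 13 alternatives, between 8513 and 10051 loci were called. The lowest number was out of 12493 loci tested, with at least 10 counts in every sample. The highest was out of 23035, with no filter beyond a total of 1 count, so these counts are not shares of the same total. With at least 10 counts in every sample, 3 of the 4 RGS genes tested were called. This filter leaves Rgs16 and Rgs17 untested by its construction, so that none was then called lower (0). With no filter beyond a total of 1 count, 3 of the 9 RGS genes tested were called lower, since Rgs2 and Rgs4 were then tested. Nothing is read from these counts of RGS genes. The log2 fold change stayed at 1.112 to 1.266 for Rgs3, 0.996 to 1.09 for Rgs10, 0.242 to 0.376 for Rgs12, -7.794 to -7.262 for Rgs16 and -0.121 to -0.031 for Rgs19, and at -2.293 to -2.209 for Yme1l1. With chromosome medians removed, Gnb5 (0.055), F2r (-0.042) and Metap2 (-0.052) changed sign; the cause was not tested. Of 565 values of named genes under alternatives, 549 kept direction and side of the threshold, 13 lost the call, including 2 of the 3 that changed sign, and 2 gained it. The labels do not say whether replicate numbers pair the samples. Correlations of deviations between samples of the same number were 0.144, -0.0939 and 0.048. The replicate block gave 9794 calls against 9387 without it. Whether samples of the same number share an effect was not tested. Depth limits what can be said of Rgs2, Rgs4, Rgs5 and Rgs14, which had 12 or fewer fragments per library.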
